A study of Mus musculus with 192 samples.

Results

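The cerebral cortex was set against the midbrain of the same nontransgenic (NON) mice, to ask how the expression of 43 genes of appetite, amylin, leptin and insulin signalling differed between the brain regions that were dissected. The samples were the 36 of 192 that held RNA of the left cortex, right cortex or midbrain of NON mice at T1 or T2. They form 12 pairs, in which both cortices of a pool were compared with the midbrain of the same pool at the same time point. Levels in the cortex and differences of single pairs use the mean of the left and right normalised counts, while fitted differences with an SE, interval or adjusted p use their summed raw counts, in which the deeper library of a pool weighs more. The NON mice were males of the L44 line, on the FVB/n background, without its tripro-human amylin transgene (a variant of human amylin with proline substitutions that does not form amyloid), which in their hemizygous (HEM) and homozygous (HOM) relatives is driven by the rat insulin 2 promoter. At T1 the NON mice were 99 to 101 days old (nominally 100 days), and at T2 they were controls for the onset of diabetes in the transgenic mice and were 90 to 286 days old. Male HEM mice (99 to 100 days old at T1, 90 to 271 at T2), male HOM mice (99 to 101 and 100 to 246 days) and older NON mice (T3, 400 to 406 days) are used only for comparison. RNA of 2 mice was mixed in 11 pools, and pool 6 of T1 held RNA of 1 mouse, so that 23 mice stand behind the 12 pairs. Pools are named by the numbers of their mice, as in pool 4/5. Collection was in the morning (AM) for 4 pairs and in the afternoon (PM) for 8, with 2 AM and 3 PM pairs at T1 and 2 AM and 5 PM pairs at T2. The dissected midbrain, as the study describes it, also took in forebrain and hypothalamus, and is therefore wider than the anatomical midbrain.

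The hypothalamus controls feeding through small groups of neurons that release neuropeptides. Agouti-related peptide (Agrp) and neuropeptide Y (Npy) promote feeding, and pro-opiomelanocortin (Pomc) and the Cart peptide restrain it. Melanin-concentrating hormone (Mch) and hypocretin (Hcrt, also called orexin) are made by neurons of the lateral hypothalamus, and Hdc makes histamine in neurons of the posterior hypothalamus. Npy, in contrast, is also made by inhibitory interneurons throughout the cortex. Amylin, a hormone of pancreatic beta cells that limits meal size, acts through the calcitonin receptor (Calcr) joined to a receptor activity-modifying protein (Ramp1, Ramp2 or Ramp3).

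Counts were made with barcoded probes, and each count is expressed here relative to 3 reference genes measured in the same library (their geometric mean), rescaled to 6901 counts, the mean of that reference level in the 36 libraries. These are called normalised counts. The total raw count over the 43 target genes was 276108 to 424114 (median 353729) in the left cortex, 298892 to 499537 (median 428562) in the right cortex and 187088 to 305131 (median 267756) in the midbrain. Positive control probes, which are added in a fixed amount, went the other way, with a mean total of 16230 ± 1855 counts (SD, n = 12) for left cortices, 13968 ± 2317 for right cortices and 22574 ± 2642 for midbrains. Why the totals moved in opposite directions was not tested, and levels are stated relative to the reference genes. With the positive controls in place of the reference genes, the median cortex minus midbrain difference over all genes moved up by 0.78 on the log2 scale. A gene was taken as above background in a library when its count exceeded the average of the 8 negative control probes by more than 2 SD. That level had a median of 22.9 counts for left cortices, 31.5 for right cortices and 24.1 for midbrains. In whole tissue, fewer cells of a type and less RNA per cell cannot be told apart.

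The labelled tissue was checked first with 5 genes made mainly by hypothalamic neurons (Agrp, Pomc, Hcrt, Mch and Hdc). Their summed normalised count was 29104 to 39462 (median 31677) in the 12 midbrain libraries. It was 253.2 to 431.6 (median 335.3) in the left cortex and 288.6 to 487.9 (median 353.1) in the right cortex. Mch was the most abundant marker and made up 94.0% of the sum in the midbrain, against 35.5% (left cortex) and 36.3% (right cortex). None of the 5 was at 0 in any library, in either cortex or in the midbrain, but background alone gives counts. Negative control probes averaged 12.9 counts in left cortices, 17.1 in right cortices and 11.3 in midbrains. The sums were taken without subtracting them. Agrp was above background in 21 of 24 cortex libraries. The panel holds no gene that marks the cortex, neurons, glia or vessels alone, so the cortices could not be checked in the same way.

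In the 12 pairs, Npy was higher in the cortex and 13 genes were lower, at an adjusted p under 0.05 (edgeR's quasi-likelihood test, Benjamini-Hochberg over the 43 genes) and an absolute log2 fold-change above 1. That is 2.33% of the 43 genes tested in the higher direction and 30.2% in the lower direction. With the positive controls in place of the reference genes, 15 genes were higher and 9 lower at the same limits. By adjusted p alone the positive controls gave 28 higher and 11 lower. The other counts here use the reference genes. By adjusted p alone, 20 genes (46.5%) were higher and 18 (41.9%) were lower in the cortex. At a limit of 0.58 on the log2 scale (1.5-fold), 5 genes (11.6%) were higher and 15 (34.9%) lower. The median log2 difference over the 43 genes was -0.05, from -7.92 to 1.62. The lowest and highest of the 12 pools did not overlap between cortex and midbrain for 25 genes, 12 higher (27.9%) and 13 lower (30.2%). All 12 pairs went the same way for 32 genes. An exact two-sided sign-flip permutation test on the 12 pair differences, adjusted over the 43 genes, passed 38 genes, and each of them also passed in the fit. The smallest p that this test can give is 0.000488, and 32 genes reached it.

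**Figure D1:**
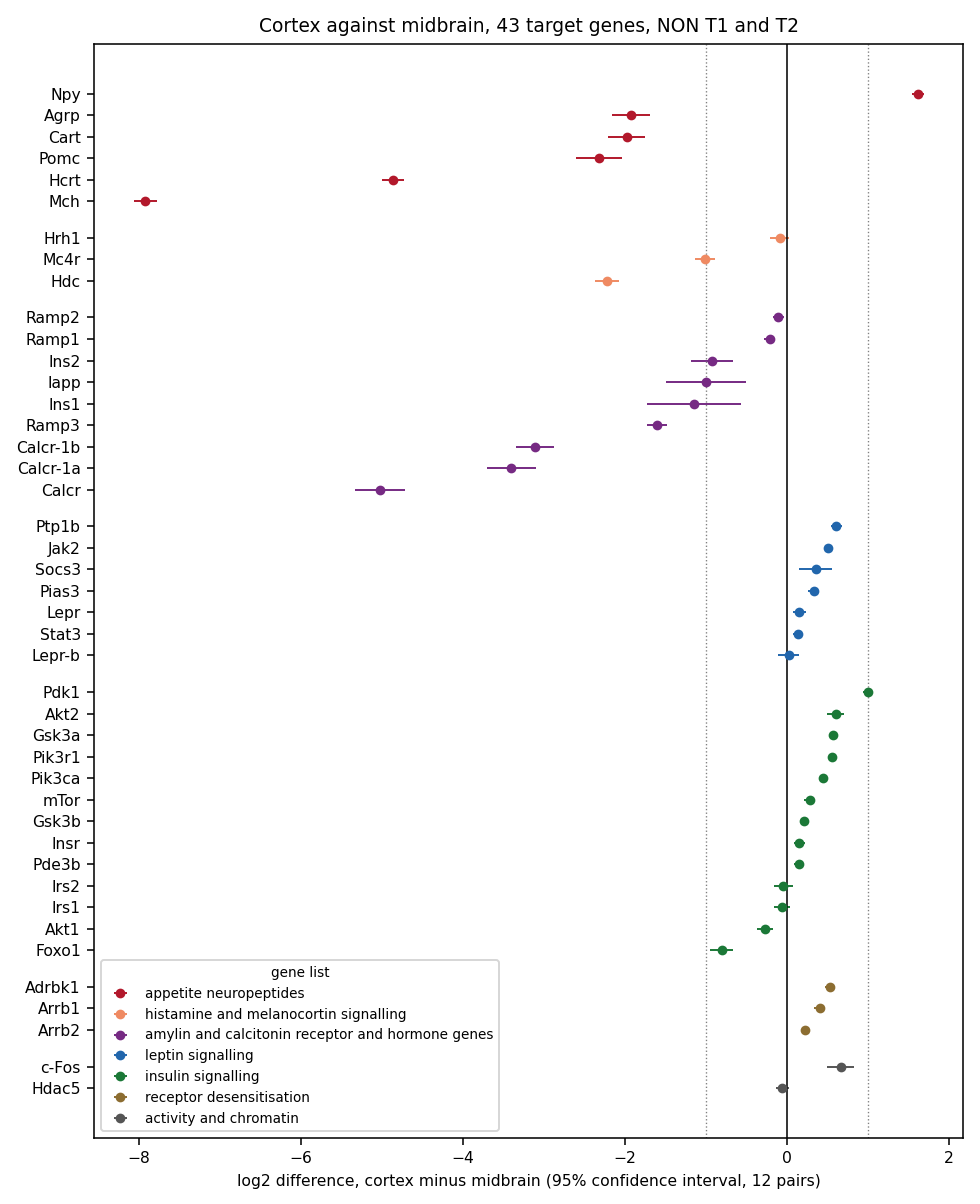
Log2 difference of cortex minus midbrain (x axis) of the 43 target genes (y axis), with 95% confidence intervals from the fit over 12 NON pairs; colours mark gene lists, and dotted lines mark the limit of 1 in each direction. Mch is lowest at -7.92 and Npy highest at 1.62, and the genes of leptin and insulin signalling lie between -0.80 and 1.00.

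Of the gene lists, the appetite neuropeptides had the largest median difference between the regions, at -2.15 on the log2 scale against -0.05 over all 43 genes. Mch, Hcrt, Pomc and Agrp also served as markers in the tissue check above, so their lower cortical levels repeat that check. All 6 neuropeptides passed the limits, 5 lower and 1 higher in the cortex (30.2% and 2.33% of all 43 genes were called so). Their values did not overlap between cortex and midbrain for any of the 6, 1 higher and 5 lower, where 27.9% and 30.2% of all 43 genes did not overlap in those directions. Mch had 95.7 to 160.4 (median 126.5) normalised counts in the cortex and 27496 to 37303 (median 29747) in the midbrain. The log2 difference was -7.92 (SE 0.066, adjusted p = 4.84e-22), a 243-fold lower level in the cortex, where 24 of 24 libraries were still above background. Hcrt had 23.6 to 44.6 (median 37.5) in the cortex and 930.5 to 1189 (median 1069) in the midbrain, a log2 difference of -4.86 (SE 0.064, adjusted p = 2.59e-19). Its cortical counts were close to background, although 24 of 24 cortex libraries exceeded it. With the negative controls subtracted, the cortex held 0.365% of the midbrain level of Mch and 2.16% of that of Hcrt.

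The 250 bases upstream of the starts of Mch (RefSeq symbol Pmch), Hcrt and Npy are shown because these genes had the largest differences among the neuropeptides in each direction. They are from RefSeq, build GRCm38.p6, whose strain is not FVB/n, and are written 5′ to 3′ on the strand of the gene. Capitals mark TATAAA, searched on both strands, which 12.4% of 32851 upstream windows of this length hold. Mch is at chr10:88090822-88091071 on the + strand, Hcrt at chr11:100762932-100763181 on the - strand and Npy at chr6:49822460-49822709 on the + strand.
Mch: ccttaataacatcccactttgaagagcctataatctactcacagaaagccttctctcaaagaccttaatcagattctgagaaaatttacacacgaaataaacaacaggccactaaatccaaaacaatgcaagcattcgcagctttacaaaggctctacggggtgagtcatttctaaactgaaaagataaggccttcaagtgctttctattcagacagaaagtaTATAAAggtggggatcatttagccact
Hcrt: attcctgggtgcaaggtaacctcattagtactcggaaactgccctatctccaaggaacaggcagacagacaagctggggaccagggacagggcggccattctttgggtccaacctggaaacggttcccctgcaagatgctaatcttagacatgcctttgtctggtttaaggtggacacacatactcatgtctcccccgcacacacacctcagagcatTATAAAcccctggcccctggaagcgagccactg
Npy: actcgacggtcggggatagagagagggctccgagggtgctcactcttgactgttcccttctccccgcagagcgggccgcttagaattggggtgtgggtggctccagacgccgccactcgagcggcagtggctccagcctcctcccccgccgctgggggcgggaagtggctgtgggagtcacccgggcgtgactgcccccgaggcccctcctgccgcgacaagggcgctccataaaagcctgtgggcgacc
The match began 27 bases before the start of Mch and 33 bases before the start of Hcrt, and the Npy window held 0 matches. A match describes these letters only.

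The peptides of the arcuate nucleus differed less than Mch and Hcrt did. Pomc, the precursor of the melanocortins, had 54.3 to 138.7 (median 67.6) normalised counts in the cortex and 210.6 to 521.6 (median 403.8) in the midbrain. Its log2 difference was -2.32 (SE 0.13, adjusted p = 5.82e-11). Agrp, which blocks melanocortin receptors, had 29.3 to 42.9 (median 35.4) in the cortex and 94.3 to 195.6 (median 142.6) in the midbrain. The log2 difference of Agrp was -1.93 (SE 0.11, adjusted p = 5.13e-11), and 21 of 24 cortex libraries were above background. Background counts held these differences down, since with the negative controls subtracted the cortex had 17.1% of the midbrain level of Pomc and 17.4% of that of Agrp, against 20.1% and 25.7% without. Cart, a peptide that is not restricted to the hypothalamus, had 781.5 to 2080 (median 1426) in the cortex and 4164 to 7669 (median 5791) in the midbrain. Its log2 difference was -1.98 (SE 0.11, adjusted p = 2.88e-11), with all 12 pairs lower in the cortex.

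Npy was the exception among these peptides. It had 54013 to 90449 (median 61172) normalised counts in the cortex and 15251 to 27133 (median 20523) in the midbrain, so that the lowest cortex pool lay above the highest midbrain pool. The log2 difference was 1.62 (SE 0.033, adjusted p = 8.79e-17), or 3.08-fold, and the 12 pairs lay between 1.46 and 1.83. Its highest cortex value and its highest midbrain value came from the same pool, 5/10 of T2, which had a pair difference of 1.74.

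**Figure D2:**
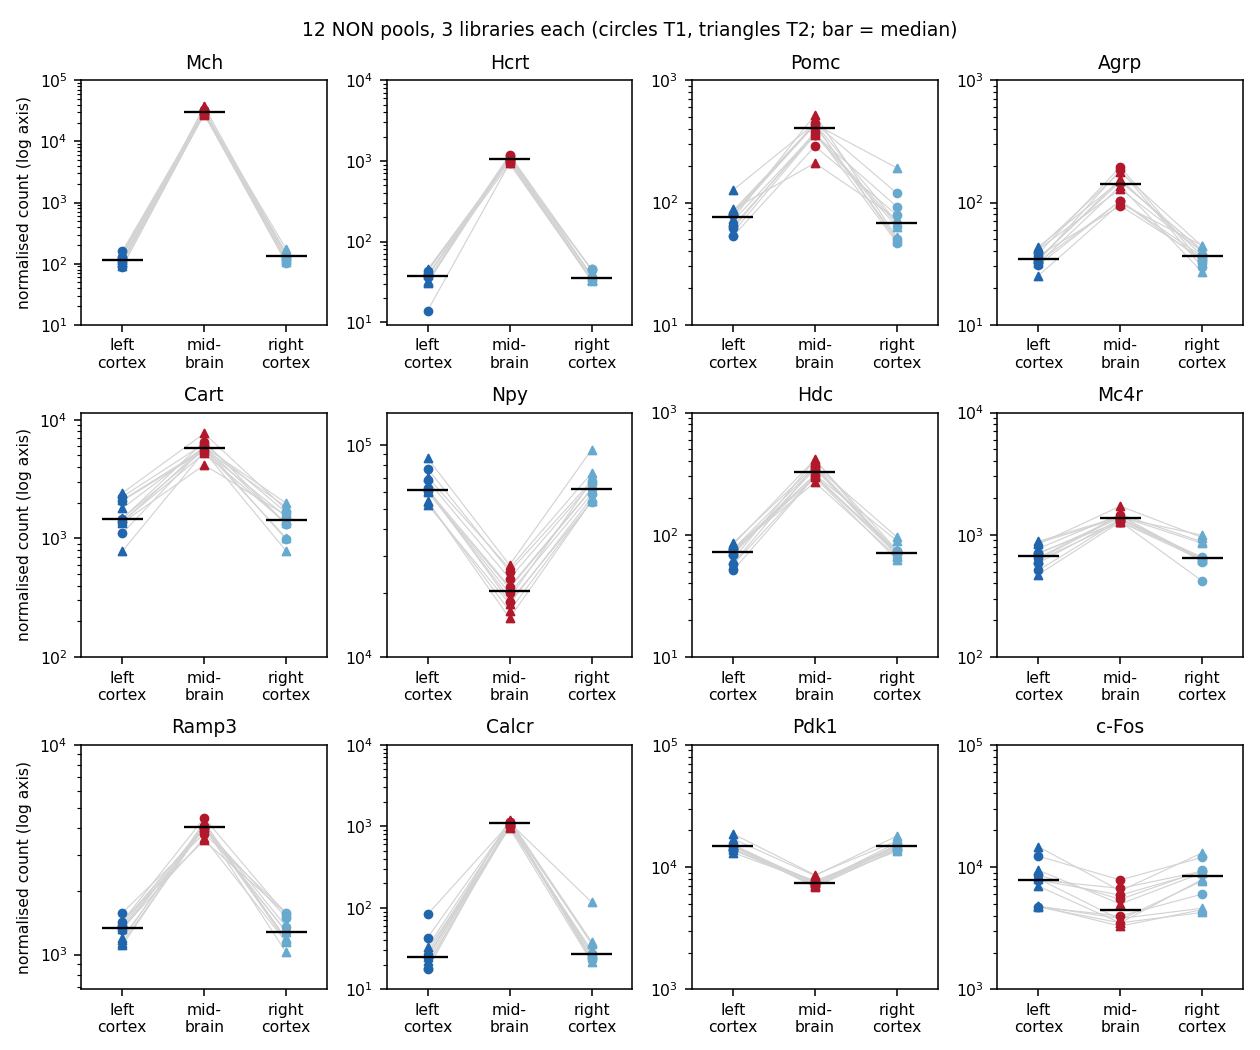
Normalised counts (log y axis, a different range in each panel) of 12 genes in the left cortex, midbrain and right cortex of the 12 NON pools; grey lines join the libraries of a pool, circles are T1, triangles are T2 and bars are medians. The midbrain lies above both cortices for Mch (median 29747 against 126.5 for the mean of both cortices), Hcrt, Pomc, Agrp, Cart, Hdc, Mc4r, Ramp3 and Calcr, and below them for Npy and Pdk1, while the ranges of c-Fos overlap.

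Of the histamine and melanocortin genes, 2 of 3 were called lower in the cortex, against 30.2% of all 43 genes, with a median log2 difference of -1.01 against -0.05 over all genes. Hdc had 62.2 to 90.9 (median 71.2) normalised counts in the cortex and 268.3 to 413.4 (median 327.4) in the midbrain, a log2 difference of -2.22 (SE 0.069, adjusted p = 2.46e-14). Mc4r, the melanocortin receptor through which Pomc products restrain feeding, had 560.2 to 926.0 (median 629.0) in the cortex and 1274 to 1716 (median 1378) in the midbrain. Its log2 difference of -1.01 (SE 0.059, adjusted p = 7.52e-11) lay just past the limit. The call of Mc4r was lost, at -0.9995 to -0.9949, without T1 pools 1/3, 4/5 or 6 or T2 pool 1/3, while its adjusted p stayed under 0.05 and all 12 pairs were lower. It was also lost with the positive controls, at -0.23, and without reference gene 1, at -0.89. Hrh1, a histamine receptor, had 1180 to 1932 (median 1363) in the cortex and 1324 to 1694 (median 1462) in the midbrain, with overlapping ranges. Its difference was -0.09 (95% confidence interval -0.21 to 0.03, adjusted p = 0.15), and 0.70 with the positive controls.

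All 9 amylin and calcitonin receptor and hormone genes were lower in the cortex by adjusted p, against 41.9% of all 43 genes (Ramp1 and Ramp2 turned with the positive controls), and 6 were called lower at the limit of 1, against 30.2% of all genes (Iapp, Ins1 and Ramp3 lost the call with the positive controls), with a median log2 difference of -1.15 against -0.05 over all genes. Calcr, the receptor, had 20.1 to 75.4 (median 27.4) normalised counts in the cortex and 950.1 to 1203 (median 1095) in the midbrain, a log2 difference of -5.03 (SE 0.14, adjusted p = 9.36e-15). Only 13 of 24 cortex libraries exceeded background (4 left and 9 right), and with the negative controls subtracted the difference was -5.85. Its cortical median of 27.4 lay close to the mean background level of the cortex, 26.5, so the size of this difference is uncertain. The highest cortex library was the right cortex of T2 pool 5/10, at 117.4 normalised counts against 33.3 in the left cortex of the same mice, and the next was the left cortex of T1 pool 6, at 83.2 against 24.9 in the right. These were the only cortex libraries above 50 normalised counts, which was seen after the values were known. Without pool 5/10 the log2 difference was -5.17. Its transcript variants followed the whole gene in direction. Calcr-1a had 63.9 to 139.1 (median 128.0) in the midbrain and 4.597 to 15.9 (median 10.9) in the cortex, where 0 of 24 libraries were above background. Against the mean background level of the cortex, 26.5 normalised counts, it was at least 4.57-fold lower in the cortex under the reference genes. That bound was not tested. The fitted log2 difference was -3.40 (adjusted p = 8.15e-13 in edgeR's quasi-likelihood test), a size that cortical counts under background do not measure. Calcr-1b had 143.8 to 246.6 (median 202.0) in the midbrain and 14.4 to 26.7 (median 23.3) in the cortex, with 6 of 24 cortex libraries above background, and a log2 difference of -3.11 (adjusted p = 1.45e-13). Its mean in the cortex, 22.5, lay under the background level, so the size of this difference was not measured, and with the negative controls subtracted it was -4.37. The probe for Calcr and those for its variants target the same gene and are not independent measurements.

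Of the 3 receptor partners, Ramp3 passed the limit of 1 and the other 2 did not. Ramp3 had 1110 to 1585 (median 1310) normalised counts in the cortex and 3501 to 4482 (median 4042) in the midbrain, with a log2 difference of -1.60 (SE 0.059, adjusted p = 2.59e-13) and no overlap. Ramp1 had 8756 to 10295 (median 9453) in the cortex and 10426 to 11728 (median 10777) in the midbrain, a log2 difference of -0.21 (SE 0.031, adjusted p = 1.07e-05). Ramp2 had a log2 difference of -0.10 (SE 0.030, adjusted p = 0.00371) and was lower in 11 of 12 pairs. With the positive controls in place of the reference genes, Ramp1 and Ramp2 turned to 0.57 and 0.68, while Ramp3 kept its direction at -0.82. The directions of Ramp1 and Ramp2 thus depended on the normalization, and Ramp2 also turned to 0.025 without reference gene 1, whereas the gap between Ramp3 and either of them within a library does not rest on the normalization.

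The hormone genes were at or under background in most cortex libraries and above it in most midbrain libraries. Amylin itself (gene symbol Iapp) was above background in 3 of 24 cortex and 8 of 12 midbrain libraries, Ins1 in 4 and 8, and Ins2 in 3 and 9. Iapp had 16.1 to 25.1 (median 21.1) normalised counts in the cortex and 15.2 to 124.6 (median 37.7) in the midbrain, with overlapping ranges and 10 of 12 pairs lower in the cortex. Its log2 difference of -1.0005 (SE 0.23, adjusted p = 0.000797) stood at the limit, and the highest value came from T1 pool 4/5. Without that pool it was -0.79, and the call was lost at that limit also without T1 pool 1/3 or without T2 pools 2/15, 4/13 or 6/9. Ins1 had 5.18 to 28.9 (median 17.9) in the cortex and 14.2 to 61.0 (median 40.9) in the midbrain, with a log2 difference of -1.15 (SE 0.27, adjusted p = 0.000921) and 10 of 12 pairs lower. Ins2, at -0.92 (SE 0.12, adjusted p = 2.48e-06), did not reach the limit, but passed it with the negative controls subtracted (-2.12), without reference gene 3 (-1.07) and with the left cortex only (-1.03). With the positive controls none of the 3 passed by adjusted p, with Iapp at -0.21 (adjusted p = 0.38), Ins1 at -0.37 (adjusted p = 0.20) and Ins2 at -0.14 (adjusted p = 0.38). The cortex means of these 3 genes (20.8 for Iapp, 17.5 for Ins1 and 18.5 for Ins2) lay under the background level of 26.5, so the sizes of their differences were not measured. With the negative controls subtracted, Iapp was at -1.96 and Ins1 at -2.41.

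**Figure D3:**
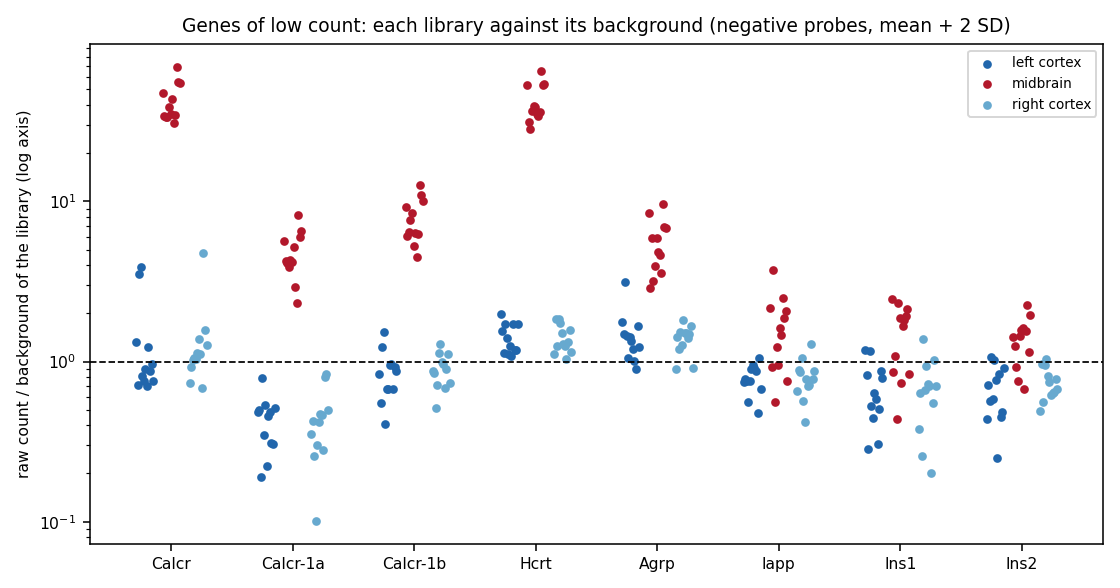
Raw count divided by the background of the same library (log y axis; background lies 2 SD above the average negative control probe, dashed line at 1) for 8 genes of low count in the left cortex, midbrain and right cortex libraries, 12 of each. For Calcr-1a 0 of 24 cortex libraries and 12 of 12 midbrain libraries lie above the line, and for Ins1 4 of 24 and 8 of 12 do.

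Genes of leptin signalling went the other way. Of 7, 6 were higher in the cortex by adjusted p and 0 lower, against 46.5% and 41.9% of all 43 genes. Without reference gene 3, Stat3 turned to -0.011 and Lepr and Socs3 missed the threshold. The median log2 difference was 0.33, and none passed the limit of 1 under the reference genes. With the positive controls, Ptp1b (1.40), Jak2 (1.30), Socs3 (1.14) and Pias3 (1.12) passed that limit. Ptp1b, a phosphatase that ends leptin and insulin receptor signals, had 8554 to 12140 (median 10198) normalised counts in the cortex and 5663 to 7931 (median 6607) in the midbrain. Its log2 difference was 0.61 (SE 0.032, adjusted p = 2.03e-11), and the ranges did not overlap. Jak2, the kinase bound to the leptin receptor, had a log2 difference of 0.51 (SE 0.020, adjusted p = 5.38e-13) and was higher in 12 of 12 pairs. Pias3, an inhibitor of Stat3, had 0.33, and Stat3, the factor that leptin activates, had 0.14, both with an adjusted p under 0.05. Socs3, which is induced by leptin and blocks its receptor, had 63.8 to 115.7 (median 93.3) in the cortex and 55.5 to 86.6 (median 71.4) in the midbrain, with overlapping ranges. It was higher in 10 of 12 pairs, at 0.36 (SE 0.095, adjusted p = 0.00214). The receptor probe Lepr had 0.16 (adjusted p = 0.0013) but 0.049 with the left cortex only (adjusted p = 0.46), while the signalling form Lepr-b had 0.02 (adjusted p = 0.70).

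Of the 13 genes of insulin signalling, 9 were higher in the cortex by adjusted p, against 46.5% of all 43 genes (without reference gene 3, Pde3b turned to -0.0015 and Insr missed the threshold), 2 lower, against 41.9%, and 2 did not pass, with a median log2 difference of 0.21. Pdk1, a kinase upstream of Akt, had 13278 to 17533 (median 14497) normalised counts in the cortex and 6853 to 8631 (median 7380) in the midbrain, with no overlap. Its log2 difference was 1.00 (0.998 before rounding; SE 0.025, adjusted p = 1.56e-15), just short of the limit of 1, and it passed the limit without T1 pools 2/7 or 8/9 or without T2 pool 7/8. Akt2 had 2101 to 2773 (median 2504) in the cortex and 1394 to 1751 (median 1654) in the midbrain, a log2 difference of 0.60 (SE 0.050, adjusted p = 7.96e-09). Gsk3a had 0.58, Pik3r1 0.56, Pik3ca 0.45, mTor 0.28, Gsk3b 0.21, Insr 0.16 and Pde3b 0.14. With the positive controls, Pdk1 (1.78), Akt2 (1.39), Gsk3a (1.36), Pik3r1 (1.34), Pik3ca (1.24) and mTor (1.06) passed the limit of 1. Foxo1, a transcription factor that Akt keeps out of the nucleus, went against the list, with 3368 to 5513 (median 4052) in the cortex and 6292 to 7857 (median 7124) in the midbrain. Its log2 difference was -0.80 (SE 0.066, adjusted p = 7.32e-09), lower in 12 of 12 pairs, but with the positive controls it was -0.022 (adjusted p = 0.78). Akt1 was also lower, at -0.27 (SE 0.046, adjusted p = 5.37e-05), and turned to 0.52 with the positive controls. The sister genes thus lay on opposite sides, Akt2 above and Akt1 below 0, under the reference genes. Irs1 and Irs2 had -0.06 and -0.05 and did not pass, and Irs2 turned to 0.74 with the positive controls.

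The 3 genes of receptor desensitisation, which switch off G protein-coupled receptors, were all higher in the cortex by adjusted p, against 46.5% of all 43 genes, with a median log2 difference of 0.41. Adrbk1, a receptor kinase, had 0.54 (SE 0.029, adjusted p = 3.84e-11), Arrb1 had 0.41 (SE 0.031, adjusted p = 3.13e-09) and Arrb2 had 0.22 (SE 0.020, adjusted p = 3.31e-08), each higher in 12 of 12 pairs. With the positive controls they were at 1.32, 1.19 and 1.01, past the limit of 1. c-Fos, the immediate early gene used as a sign of recent neuronal activity, had 4486 to 13883 (median 8179) normalised counts in the cortex and 3287 to 7848 (median 4485) in the midbrain. The ranges overlapped because c-Fos differed widely between pools, but 12 of 12 pairs were higher in the cortex, at 0.67 (SE 0.079, adjusted p = 7.34e-07). With the positive controls c-Fos was at 1.45. Hdac5, a histone deacetylase, had -0.05 (95% confidence interval -0.13 to 0.02, adjusted p = 0.16), and 0.73 with the positive controls.

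The spread between pools was not the same for all genes. The SD was 10.7% of the mean in the cortex and 8.02% in the midbrain for the median gene. It was 37.1% and 30.9% for c-Fos, 30.3% and 21.1% for Pomc, and 46.7% in the cortex but 6.80% in the midbrain for Calcr. The SD of the 12 pair differences had a median of 0.17 on the log2 scale over the 43 genes. It was smallest for Arrb2 at 0.05 and largest for Ins1 at 1.17.

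Left and right cortex were each compared with the midbrain in 1 fit of the 36 libraries. The left cortex had 1 gene higher (2.33%) and 14 lower (32.6%), and the right cortex 1 higher (2.33%) and 12 lower (27.9%). Of the 14 genes called for both cortices together, 14 were called in the same direction in the left and 13 in the right. Of the 38 that passed by adjusted p alone, 36 did so in the left and 38 in the right. Lepr (0.054 in the left, 0.23 in the right) and Ramp2 (-0.022 and -0.17) did not pass in the left. Hrh1 (0.00025 and -0.16) and Hdac5 (0.013 and -0.11) passed in the right and not in the left. Of these 4, the difference between left and right itself passed for Ramp2 and Hdac5 and not for Lepr and Hrh1. The left cortex exceeded the right in 6 genes (14% of the 43) by adjusted p, and none of these differences reached 0.58. The largest was Ramp1, 0.20 higher in the left (adjusted p = 0.0034), followed by Akt1 at 0.17 (adjusted p = 0.0131).

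The regional difference was then compared between T1 and T2, by a test of the difference between the 2 effects. With 5 pairs at T1, 1 gene was higher (2.33%) and 13 lower (30.2%), and with 7 pairs at T2, 2 were higher (4.65%) and 11 lower (25.6%). The effects differed by adjusted p for 1 gene (2.33%), and 10 genes had an unadjusted p under 0.05. mTor, a kinase of growth signalling, exceeded the midbrain by 0.10 to 0.23 on the log2 scale in the 5 pairs of T1 and by 0.28 to 0.45 in the 7 pairs of T2, without overlap. The difference between the effects was 0.20 (SE 0.040, adjusted p = 0.0096 in edgeR's quasi-likelihood test). It was 0.13 with TMM normalization (adjusted p = 0.092) and 0.00 with the positive controls (adjusted p = 1.00), so its call depended on the normalization. Under those settings Akt1 passed in its place, at -0.30 (adjusted p = 0.0316) and -0.43 (adjusted p = 0.00584). Age spanned 90 to 286 days at T2 and 99 to 101 days at T1. Without each of the 12 pools in turn, mTor kept its call.

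Between PM and AM, the regional effects differed by adjusted p for 2 genes (4.65%), with 6 at an unadjusted p under 0.05. Irs2, an adaptor of the insulin receptor, was higher in the cortex than in the midbrain in 4 of 4 AM pairs, by 0.15 to 0.27 on the log2 scale, and lower in 8 of 8 PM pairs, by -0.32 to -0.03. In the cortex it had 4881 ± 308 (SD, n = 4) normalised counts in AM pools and 3501 ± 436 (n = 8) in PM pools, and in the midbrain 4251 ± 178 and 3899 ± 310. The PM minus AM difference of the effect was -0.36 (SE 0.067, adjusted p = 0.00361 in edgeR's quasi-likelihood test) and -0.35 with TMM (adjusted p = 0.00749). With the positive controls it was -0.25 (adjusted p = 0.49). Hrh1 gave -0.32 (SE 0.085, adjusted p = 0.0450), but missed the threshold with TMM, at -0.30 (adjusted p = 0.13), and with the positive controls, at -0.21 (adjusted p = 0.53). Its AM pairs lay between -0.05 and 0.27 and its PM pairs between -0.41 and -0.02. Irs2 kept its call without each of the 12 pools in turn, whereas Hrh1 kept its call only without T1 pool 8/9 or T2 pools 11/14, 4/13 or 5/10. The same 4 AM pools stand behind both genes. For c-Fos the pair differences were 0.63 to 1.12 in AM and 0.31 to 1.10 in PM, and the difference of -0.33 had an adjusted p of 0.34, though without T2 pool 4/13 it was -0.41 (adjusted p = 0.0421).

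**Figure D4:**
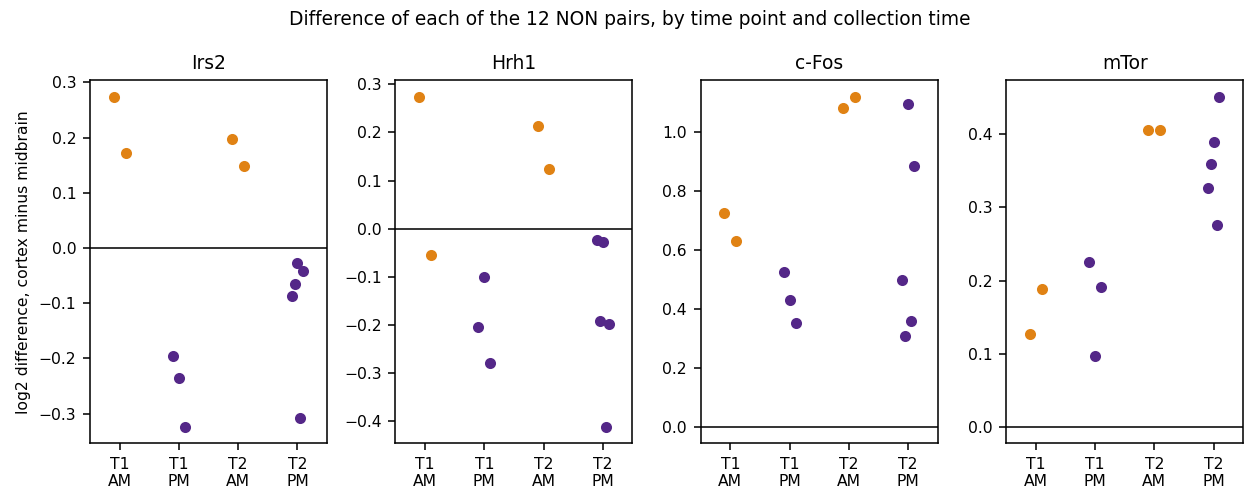
Log2 difference of cortex minus midbrain (y axis, a different range in each panel) of each of the 12 NON pairs for 4 genes, by time point and collection time (x axis; 2, 3, 2 and 5 pairs); orange is AM and purple is PM. For Irs2 the 4 AM pairs lie above 0 and the 8 PM pairs below, and for mTor the 7 T2 pairs lie above the 5 T1 pairs.

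Pools of other mice were used to see whether the regional differences recurred. The labels give no collection time for HEM pools 1/2, 3/4 and 5/6 of T1, which are kept in all HEM values here. The study, which split its samples into AM and PM groups, had no HEM AM group at T1. In HEM mice at T1 and T2 (10 pairs, 1 of them with the right cortex only), 2 genes were higher (4.65%) and 11 lower (25.6%), and in HOM mice (9 pairs) 2 were higher (4.65%) and 12 lower (27.9%). Of the 14 genes called in NON mice, 11 were called in the same direction in HEM and 12 in HOM mice. Of the 38 that passed by adjusted p alone, 36 did so in the same direction in HEM and 36 in HOM mice. The effect in HEM minus that in NON passed for 0 genes (0%), with 8 at an unadjusted p under 0.05, and HOM minus NON for 0 genes (0%), with 1, in edgeR's quasi-likelihood test. Mch had -7.65 in HEM and -7.84 in HOM, and Npy had 1.501 and 1.466. The difference from NON was under 0.58 in size for 41 of 43 genes in HEM and 42 of 43 in HOM, but a p above the threshold does not show that the effects were alike. For Calcr the effect was -3.79 in HEM, and its difference from NON in the joint fit was 1.27 (95% confidence interval 0.35 to 2.19, adjusted p = 0.14).

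The difference was smaller without HEM pool 5/6 of T1, at 0.95 (adjusted p = 0.20). The midbrain library of that pool had 343.5 normalised counts of Calcr, 65.6 of Pomc and 70.0 of Hdc. Without it and HEM pool 1/2 of T1, the 17 transgenic midbrain libraries had 833.0 to 1253, 251.6 to 957.8 and 236.2 to 389.2. The cortices of pool 5/6 had 435.4 (left) and 266.2 (right) counts of Calcr. The midbrain of pool 1/2 had 781.7 of Calcr, 73.5 of Pomc and 113.6 of Hdc. These lie under the ranges, from which that pool was left out. These libraries were singled out after their values were seen. Neither pool has a labelled collection time, and what sets them apart was not tested.

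**Figure D5:**
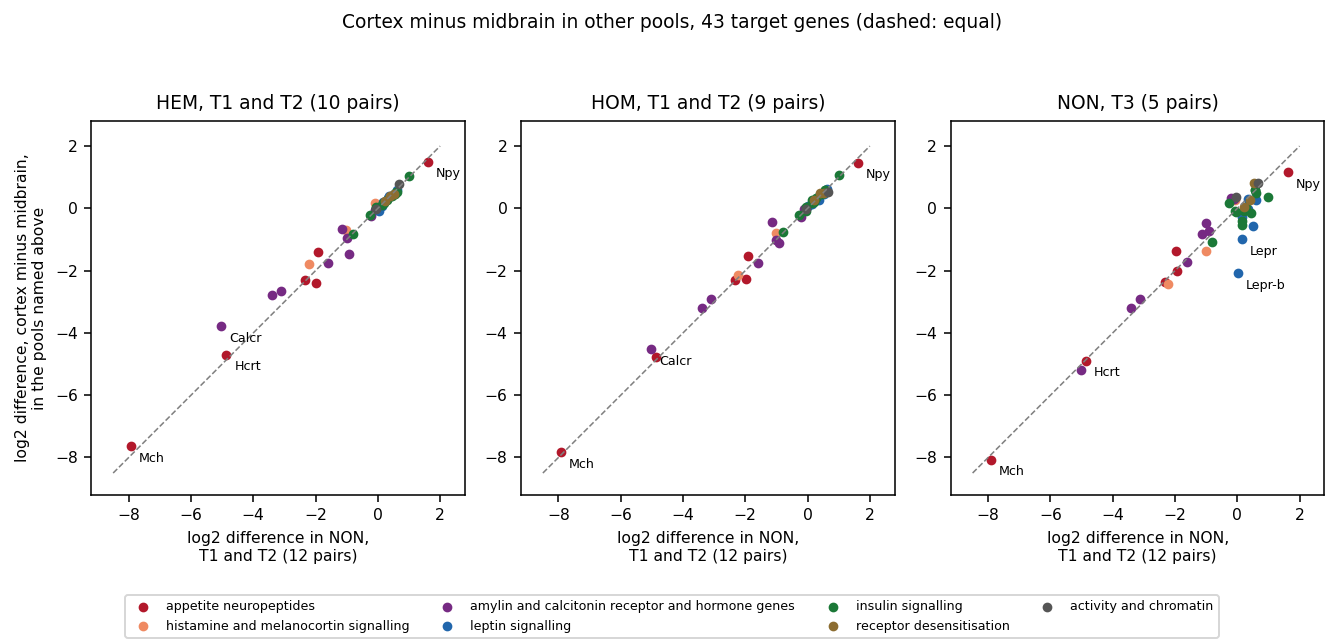
Log2 difference of cortex minus midbrain of the 43 target genes in HEM mice, HOM mice and NON mice of T3 (y axes) against that in NON mice of T1 and T2 (x axes, 12 pairs); colours mark the gene lists and the dashed line marks equal values. In HEM and HOM, Mch (-7.65 and -7.84) and Npy (1.501 and 1.466) lie near the line, and in HEM Calcr (-3.79) lies above it, while at T3 Lepr-b (-2.09) and Lepr (-0.99) lie below it.

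NON mice of T3 (nominally 400 days, 5 pairs, 1 of them with the right cortex only) kept the direction of all 6 neuropeptides. At T3, 1 gene was higher (2.33%) and 13 lower (30.2%), and 12 of the 14 calls of T1 and T2 were made in the same direction. Of the 38 genes that passed by adjusted p alone at T1 and T2, 22 did so in the same direction at T3. Mch had -8.07, Hcrt -4.90, Pomc -2.36 and Npy 1.16. The effect at T3 minus that at T1 and T2 passed by adjusted p for 22 genes (51.2%), 7 higher and 15 lower. The 3 largest were Lepr-b at -2.11 (adjusted p = 2.04e-10), Lepr at -1.15 (adjusted p = 1.01e-09) and Jak2 at -1.06 (adjusted p = 1.14e-13). Jak2, higher in the cortex in 12 of 12 pairs at T1 and T2, was lower in 5 of 5 pairs at T3. Library totals moved with this result. The median target total of the T3 cortices was 135753 (left) and 138927 (right) counts, against 362898 and 414121 at T1, while that of the midbrain was 244530 against 268495. The median reference gene mean of the left cortex was 3297 at T3 and 6969 at T1. With the positive controls, the effect at T3 was lower for all 43 genes, with a median difference of -1.58. The part of library quantity in these differences was not tested, and T3 is not part of any count given for T1 and T2.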

How the data were processed

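RNA of NON cortex and midbrain pools was counted on the nCounter platform. The authors deposited raw counts per probe (43 target genes, 3 reference genes, 6 positive and 8 negative control probes) without normalization, and the methods give no comparison of regions. The genes, gene lists and comparisons were chosen with earlier results of these data known.

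Counts of both cortices of a pool were summed and fitted with the midbrain in edgeR 4.0.16 (R 4.3.3), with the pool as a block, library sizes set by the reference genes (geometric mean) and a prior count of 0.125. P-values were adjusted over 43 genes (Benjamini-Hochberg). The SE was taken from the log2 fold-change and the F statistic. The block rests on the regions coming from the same mice. Deviations of cortex and midbrain from the mean of their time point correlated positively in 10 of 12 pools (median r = 0.20). None of 105 pairs of libraries compared was alike within sampling noise (lowest chi-square per degree of freedom 9.56). P-values of the paired fits measure how far the cortex minus midbrain difference varies between pools. In the fit of 36 libraries, left and right cortex of a pool entered separately. Its p-values therefore also rest on spread within pools.

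Alternatives used TMM, positive controls, each reference gene left out, DESeq2 1.42.0, limma 3.58.1 with a pseudocount of 1, subtraction of negative controls, a low-count filter, no block, 1 cortex only, other limits and each pool left out. Permutation tests used Python 3.11.15 with NumPy 2.4.6, pandas 2.3.3 and SciPy 1.17.1, and figures matplotlib 3.10.9. Genes were named by rule: all neuropeptide, histamine, melanocortin, amylin and calcitonin genes, c-Fos, Socs3, every called gene, genes passing a test of a difference between effects, and the 3 largest of each other list. NanoStringDiff, which the study used, was not used here. Levels of single reference genes are not reported here. In 5 HOM right cortex samples of T2 the source name and the genotype label differ; title and genotype label were followed.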

Additional observations from a re-analysis of the deposited data

Results flagged for a closer look

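In 80 checks of the 5 T1 and 7 T2 pairs, 6 genes had 1 pair far from the others of its time point. How many such pairs chance alone would flag was not estimated. At T2, pool 5/10 had a cortex minus midbrain log2 difference of -3.89 for Calcr, against -5.41 to -5.18 in the other pairs, and of -0.61 for Akt1, against -0.38 to -0.21. Pdk1 had 0.83 in T2 pool 7/8, against 0.99 to 1.08. At T1, pool 4/5 had -4.90 for Calcr-1a, against -3.70 to -3.57, and 0.14 for Arrb1, against 0.33 to 0.39. Ramp3 had -1.25 in T1 pool 8/9, against -1.61 to -1.51. Cortical counts of Calcr-1a were below background in every library.

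The regional effect differed between sets of pairs, by edgeR's test of the difference itself, for mTor between T2 and T1 (0.20) and, between PM and AM, for Irs2 (-0.36) and Hrh1 (-0.32).

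Between T3 and the earlier time points it differed for 22 genes. It was higher at T3 for Cart (0.60), Ramp1 (0.56), Akt1 (0.43), Hdac5 (0.43), Ramp2 (0.41), Hrh1 (0.35) and Adrbk1 (0.27). It was lower at T3 for Lepr-b (-2.11), Lepr (-1.15), Jak2 (-1.06), Pde3b (-0.67), Pdk1 (-0.63), Pik3ca (-0.61), Insr (-0.55), Npy (-0.46), Stat3 (-0.40), Pias3 (-0.37), Mc4r (-0.35), Ptp1b (-0.35), Gsk3b (-0.31), mTor (-0.25) and Arrb2 (-0.17). T3 cortices had lower median target totals than T1 and T2 cortices, and the part of that in these values was not tested.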

How the results depend on the processing

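Of 40 named genes, all kept direction and side of the adjusted p threshold under TMM, both DESeq2 settings, limma, subtraction of negative controls, separate libraries and omission of reference gene 2. The low-count filter kept all 43 genes and so could change nothing. Without the replicate block, 1 gene was higher and 12 lower, and Ramp2 missed the threshold, at -0.10 (adjusted p = 0.081). The number of genes higher in the cortex, 1, became 2 with TMM, DESeq2 size factors, negative controls subtracted, or reference gene 1 or 2 left out, in each case through Pdk1. It became 15 with the positive controls (9 lower), 5 at a limit of 0.58 and 20 by adjusted p alone. Leaving out 1 pool gave 1 to 2 higher and 11 to 13 lower. The number lower stayed within 1.5 times of 13 in each of these settings at the limit of 1. Iapp lost the limit of 1 under TMM, both DESeq2 settings, limma, the right cortex only, and without reference gene 1 or 2. Mc4r lost it with the positive controls, without reference gene 1 or 2, and without the replicate block (-0.99).

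With the positive controls, directions turned for Akt1 (0.52), Hdac5 (0.73), Hrh1 (0.70), Irs2 (0.74), Ramp1 (0.57) and Ramp2 (0.68). Without reference gene 1 they turned for Hdac5 (0.074), Hrh1 (0.041), Irs2 (0.083) and Ramp2 (0.025), and without reference gene 3 for Lepr-b (-0.12), Pde3b (-0.0015) and Stat3 (-0.011). With the left cortex only they turned for Hdac5 (0.014), Hrh1 (0.00088), Irs2 (0.0048) and Lepr-b (-0.028). Lepr-b also turned without T1 pool 6 (-0.0056) or T2 pool 1/3 (-0.0046). These settings moved the median gene by 0.78, 0.13 and -0.15 for the positive controls and reference genes 1 and 3. The cause was not tested.

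The tests of differences between effects depended more on the setting. For T2 minus T1, 1 gene became 0 with a limit of 1 and 1 to 2 without 1 pool. For PM minus AM, 2 became 1 with TMM, 0 with the positive controls and 0 with a limit of 1, and 1 to 3 without 1 pool. For T3, 22 became 43 with the positive controls, 3 with a limit of 1 and 21 to 24 without 1 pool. HEM and HOM against NON stayed at 0 without any 1 pool. The signal over background limited Calcr-1a, Calcr-1b, Iapp, Ins1 and Ins2, whose cortical counts lay at or under background in most libraries. Calcr was above background in 13 of 24 cortex libraries, so the size of its difference is uncertain too.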
